A study of Mus musculus with 8 samples.

Results

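The 8 genes *Spi1*, *Cebpa*, *Csf1r*, *Itgam*, *Cd14*, *Mpo*, *Elane* and *Lyz2*, all known for their roles in myeloid cells, were examined for CpG methylation in mouse B and T lymphocytes. They were 8 of the 21755 protein-coding genes of GENCODE M21 on the autosomes and X chromosome (GRCm38). Members were chosen by name, with earlier results of these data known, and each locus was the gene body with 10 kb to either side. Together the loci held 3790 CpGs with 5 or more reads in all 4 files, and between 87.6% and 97.9% of the CpGs of the reference were covered in each locus. The question was whether genes of an alternative lineage are methylated alike in B and T cells.

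Whole-genome bisulfite sequencing was performed on spleen lymphocytes of C57BL/6J mice, an inbred strain, at 6 to 8 weeks of age. The 8 samples formed 4 groups of 2: female and male CD43- B cells, described as resting, and female and male CD4+CD62L+ T cells, described as naive, with cells pooled over animals. The T cells were depleted with antibodies that included one against CD11b, the protein encoded by *Itgam*, and then sorted as CD62Lhi, CD44lo and CD25-. Each group had a single deposited file, and whether it merges both samples or holds 1 of them is not stated, so no group has a replicate and every B and T cell difference was seen once in females and once in males. Mean depth over the autosomal CpGs of a file was 14.6 to 17.7 reads. A level is methylated reads over all reads of a region, in which 5-methylcytosine and 5-hydroxymethylcytosine count alike, and since DNA was pooled over cells, partial methylation in every cell and full methylation in part of the cells cannot be told apart.

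Lists of B and T cell genes were chosen with earlier results of these data known, so their counts describe the files and are no independent check. A difference of at least 20 percentage points with an adjusted p under 0.05 (a call, as used for promoters throughout) was found at 8 of 12 listed B cell promoters, all lower in B cells, against 0.422% of all promoters called in that direction. It was found at 9 of 12 listed T cell promoters, all higher in B cells, against 0.474% of all promoters. The promoter of *Cd3e*, which encodes a chain of the CD3 complex, was at 83.4% and 86.6% in B cells and at 3.45% and 1.87% in T cells, each in the order female and male.

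Myeloid cells (monocytes, macrophages and granulocytes) and lymphocytes arise from common progenitors in the bone marrow. PU.1, encoded by *Spi1*, is an ETS family transcription factor needed for myeloid and B cell development and is switched off during T cell development. C/EBPα, encoded by *Cebpa*, acts with PU.1 to turn on receptor, granule and enzyme genes of granulocytes and macrophages. In mammals, CpG islands commonly stay unmethylated whether or not their gene is transcribed. No promoter level was taken here as a measure of gene use.

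The promoter sequences below show how unlike the starts of these genes are in CpG content. RefSeq promoter entries (250 bases before to 50 after the start, GRCm38.p6) were matched for 5 of the 8 genes: *Cebpa*, *Mpo*, *Elane*, *Itgam* and *Lyz2*. Entries were not matched for *Spi1*, *Csf1r* and *Cd14*. The 300 base entries held 29 CpGs for *Cebpa*, 6 for *Elane* and *Itgam*, 2 for *Mpo* and 1 for *Lyz2*, and the median over all promoters was 7. *Cebpa* is shown as the entry with most CpGs, *Lyz2* as that with fewest and *Elane* as one near the median, each cut to the bases that lie before both the RefSeq and the GENCODE start, with CpGs in capitals. The *Cebpa* stretch is chr7:35119043-35119292 on the plus strand, the *Elane* stretch chr10:79886062-79886246 on the plus strand and the *Lyz2* stretch chr10:117282322-117282522 on the minus strand.
Cebpa: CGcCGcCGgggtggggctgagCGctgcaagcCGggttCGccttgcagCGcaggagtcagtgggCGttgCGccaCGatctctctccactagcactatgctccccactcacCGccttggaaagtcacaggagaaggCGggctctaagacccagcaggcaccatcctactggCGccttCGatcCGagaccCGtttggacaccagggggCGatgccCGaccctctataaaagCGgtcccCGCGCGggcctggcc
Elane: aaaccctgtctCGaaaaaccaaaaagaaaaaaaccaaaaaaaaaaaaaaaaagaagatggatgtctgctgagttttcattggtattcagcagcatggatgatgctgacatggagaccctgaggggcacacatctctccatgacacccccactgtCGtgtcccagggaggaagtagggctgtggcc
Lyz2: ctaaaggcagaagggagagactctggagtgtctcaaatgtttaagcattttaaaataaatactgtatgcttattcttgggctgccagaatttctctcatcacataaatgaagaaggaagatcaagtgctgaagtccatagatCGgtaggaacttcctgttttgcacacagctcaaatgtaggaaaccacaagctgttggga

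The *Cebpa* stretch held 22 CpGs in 250 bases, and all were measured. Its level was 0.683% in female B, 0.262% in male B, 0.229% in female T and 1.75% in male T cells. The *Elane* stretch held 2 CpGs, of which the measured one, at base 155, was at 16.7%, 8.33%, 10.5% and 25% in the same order on 12 to 19 reads. The single CpG of the *Lyz2* stretch, at base 143, was unmethylated in every read of every file. These were 14, 14, 14 and 19 reads in the same order, which allow a level of up to 21.4% in the first 3 files and 15.8% in the male T cell file (3 reads of the total, counting error only). These small counts therefore do not tell whether the B and T cell files differed there.

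Letters of binding motifs were searched on both strands of the 300 base RefSeq entries. GAGGAA, a core of PU.1 binding, was found 3 times for *Itgam*, 2 times for *Mpo* and once for *Elane*, and 28.3% of the 32851 promoters of that table held it. TGTGGT, a core of RUNX binding, was found once for *Lyz2* and in 16.8% of all promoters. TTGCNNAA, a C/EBP motif, was found for none of the 5 genes and in 10.8% of all promoters. A match describes letters in the window and not an occupied site.

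At *Spi1* and *Itgam*, B and T cells differed at short stretches inside or before the gene in opposite directions. Windows within 1 kb of a transcript start are not shown, which leaves out the leading window lower in B cells at *Spi1*. Shown are the 300 bases with most CpGs of the leading 1 kb window that was lower in T cells at *Spi1*, of the leading window lower in T cells at *Itgam* and of the leading window lower in B cells at *Itgam*. They lie at chr2:91088443-91088742 (a *Spi1* intron), chr7:128084639-128084938 (in the *Itgam* gene body, in a window with an exon) and chr7:128053001-128053300 (intergenic, before *Itgam*), all written on the plus strand of GRCm38.p6 with CpGs in capitals.
Spi1, lower in T: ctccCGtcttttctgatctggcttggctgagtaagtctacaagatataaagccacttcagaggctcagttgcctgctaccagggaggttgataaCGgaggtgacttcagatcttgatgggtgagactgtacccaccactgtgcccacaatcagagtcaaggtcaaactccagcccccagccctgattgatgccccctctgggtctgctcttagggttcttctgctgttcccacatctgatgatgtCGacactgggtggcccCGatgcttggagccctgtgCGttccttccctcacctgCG
Itgam, lower in T: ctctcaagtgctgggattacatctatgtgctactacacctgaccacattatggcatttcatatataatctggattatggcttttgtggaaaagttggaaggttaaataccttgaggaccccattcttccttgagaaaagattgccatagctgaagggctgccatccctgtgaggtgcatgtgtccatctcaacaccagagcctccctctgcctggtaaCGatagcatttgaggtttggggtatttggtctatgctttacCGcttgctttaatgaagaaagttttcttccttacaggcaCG
Itgam, lower in B: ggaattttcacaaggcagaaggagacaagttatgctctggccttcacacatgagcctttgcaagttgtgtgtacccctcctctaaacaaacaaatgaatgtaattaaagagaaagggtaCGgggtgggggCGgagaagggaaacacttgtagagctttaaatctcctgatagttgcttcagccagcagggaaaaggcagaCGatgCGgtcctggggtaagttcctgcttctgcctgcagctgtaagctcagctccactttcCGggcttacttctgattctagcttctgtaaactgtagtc

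In the *Spi1* stretch, the CpGs at bases 5 and 95 were unmethylated in every read of both T cell files, on 17 to 26 reads that allow a level of up to 11.5% to 17.6%. The same CpGs were at 88.2% and 100% in female B and at 80% and 94.7% in male B cells. The remaining 4 CpGs were at 10.7% to 59.3% in T cells and at 81.3% to 100% in B cells, so that each of the 6 CpGs was lower in both T cell files than in either B cell file. In the *Itgam* stretch that was lower in T cells, the 3 CpGs were at 11.1% to 46.7% in T cells and at 72.2% to 100% in B cells. In the stretch before *Itgam*, 4 of 5 CpGs were at 0% to 19.05% in B cells (0% at 3 CpGs in the male file, on 14 to 16 reads that allow up to 18.8% to 21.4%) and at 59.1% to 94.1% in T cells. Its CpG at base 131 was at 58.8% and 50% in B and at 80% and 100% in T cells. None of these 3 stretches held GAGGAA or TTGCNNAA, and TGTGGT was found once in the *Itgam* stretch lower in T cells. Among the central 300 bases of 201832 tested windows, 26.2%, 13.5% and 20.5% held GAGGAA, TTGCNNAA and TGTGGT, respectively.

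Promoters, taken as the annotated gene start with 1 kb to either side, differed by less than 5 points between B and T cells at 6 of the 8 genes and were lower in B cells at *Spi1* and *Lyz2*. The call required an adjusted p under 0.05 in a quasi-binomial test over all promoters, together with a difference between the mean B and mean T cell levels of at least 20 percentage points. By this rule 0 of the 8 promoters were called, against 0.896% of the 21082 promoters tested (189 promoters). At an unadjusted p under 0.05 there were 3 (*Spi1*, *Lyz2* and *Cd14*), beside 14.3% of all promoters, 2 of these had an adjusted p under 0.05 but a difference under 20 points (*Spi1* and *Lyz2*), and 0 were called by either use of limma. The median difference over the 8 promoters was -0.58 points, and 0.15 points over all promoters. In absolute size the median was larger for the members, with 3.37 points over the 8 promoters and 1.18 points over all promoters. The share of all promoters that differed by less than 5 points is not given here. The rule takes 1 start per gene. At *Csf1r* it is the start of a noncoding transcript. At *Spi1*, 2 further coding starts downstream, tested after the data were seen, were called lower in B cells (given below).

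**Figure D1:**
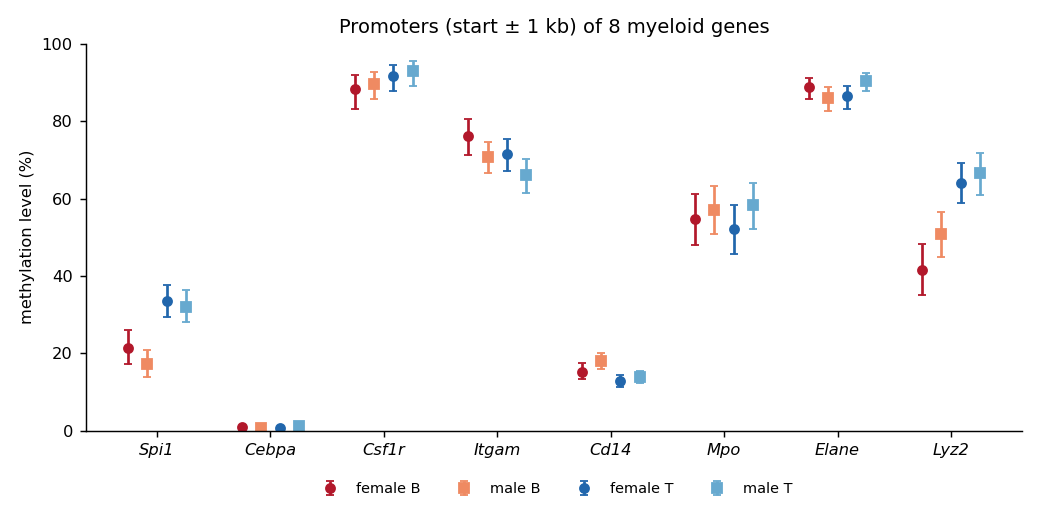
Promoter methylation level (%) of the 8 genes in each file, by gene. Circles are female and squares male files, red and orange B and blue shades T cells, and bars are 95% Wilson intervals of the read counts. Levels run from about 1% at Cebpa to about 90% at Csf1r and Elane, and the B and T cell intervals are apart at Spi1 and Lyz2.

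*Spi1* (chr2:91082390-91115756, plus strand) had a promoter level of 21.3% in female B, 17.2% in male B, 33.5% in female T and 32.1% in male T cells, on 343 to 508 reads over 26 CpGs. Both B cell files were below both T cell files, and their 95% Wilson intervals (17.3% to 25.9% and 13.9% to 21.0%) lay below those of T cells (29.5% to 37.7% and 28.1% to 36.4%). The difference was -13.6 points (adjusted p = 0.0419), under the 20 points of the call. Within 250 bases of the start, 6 CpGs were at 13.6% and 4.69% in female and male B and at 43.8% and 31.5% in T cells, a width chosen after the values were seen.

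The annotated gene start of *Spi1* is that of a single long transcript, and further coding transcripts start 13.7 and 14.4 kb downstream. When every annotated start of a coding transcript was tested, a choice made after the data were seen, both downstream starts were lower in B cells and were the only 2 of 20 member starts to be called, against 1.36% of 53062 starts. Around the start at 13.7 kb the level was 39.1% and 31.0% in female and male B and 63.8% and 67.6% in T cells, a difference of -30.7 points. Around the start at 14.4 kb it was 23.2% and 18.2% in B and 60.2% and 63.0% in T cells, a difference of -40.8 points. The regions around these starts overlap and share CpGs. Within 250 bases of the start at 14.4 kb, B cells were nearly unmethylated at 1.66% and 0.252%, whereas T cells stood at 45.7% and 48.9%. Within 250 bases of the start at 13.7 kb, all 4 files were high, at 90.4% and 86.6% in B and 93.6% and 92.8% in T cells.

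Over the *Spi1* locus as a whole the level was 73.6% and 72.9% in female and male B and 77.4% and 78.0% in T cells, and the difference of -4.43 points was not called (adjusted p = 0.128). That average held windows of both directions. Of the 54 windows of 1 kb, 8 were called (14.8%), 5 lower in B and 3 lower in T cells. Among all windows 2.08% were called, and 2.78% of those in the loci of all protein-coding genes. These 2 shares also stand beside the window counts of the other genes below. Window p-values, here and below, rest on an average dispersion, carry no spread between pools and overstate the certainty of any single window. The window centred 6.11 kb from the start (chr2:91088001-91089000, intron) was at 94.4% in female B, 94.0% in male B, 32.1% in female T and 32.2% in male T cells, 62.1 points above T cells on average (adjusted p = 3.86e-54). The neighbouring window at 5.11 kb was at 40.4% and 36.2% in B and 13.6% and 19.1% in T cells, with 21.9 points between the means, and fell under the 20 point threshold without either female file. A further intron window at 18.1 kb (chr2:91100001-91101000) was at 71.8% and 83.0% in B and 35.3% and 40.4% in T cells.

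In the other direction, the *Spi1* window centred at 15.1 kb (chr2:91097001-91098000, intron) was at 3.81% in female B, 7.06% in male B, 57.5% in female T and 59.9% in male T cells, a difference of -53.2 points (adjusted p = 2.61e-95). Its neighbours at 14.1 kb, which holds the first exon of the downstream transcripts, and at 16.1 kb differed by -38.7 and -31.1 points. The run of B cell low windows from 14.1 to 16.1 kb thus lay between the windows at 6.11 and 18.1 kb that were lower in T cells. The remaining called windows, at -1.89 and -0.889 kb, were lower in B cells with differences of -20.1 and -22.6 points and lay near the 20 point threshold. Without the female B or the male T cell file the first fell under it, and without either male file the second did.

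*Cebpa* (chr7:35119293-35121928, plus strand) was the least methylated promoter and the most alike. It was at 0.858% in female B, 0.778% in male B, 0.636% in female T and 1.28% in male T cells, on 2796 to 4402 reads over 206 CpGs. All 4 files were under 2%, and the difference was -0.14 points (adjusted p = 0.841). The body, which is a single exon, was at 4.85% and 5.41% in female and male B and 5.11% and 4.97% in T cells. The upstream flank was at 36.8% and 36.4% in B and 32.6% and 37.5% in T cells, and the downstream flank at 68.3% and 70.4% in B and 74.9% and 75.6% in T cells. None of the 23 windows was called. The largest difference stood at 10.2 kb, with 72.4% and 68.7% in B and 85.0% and 84.7% in T cells, a difference of -14.3 points (adjusted p = 7.71e-09).

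**Figure D2:**
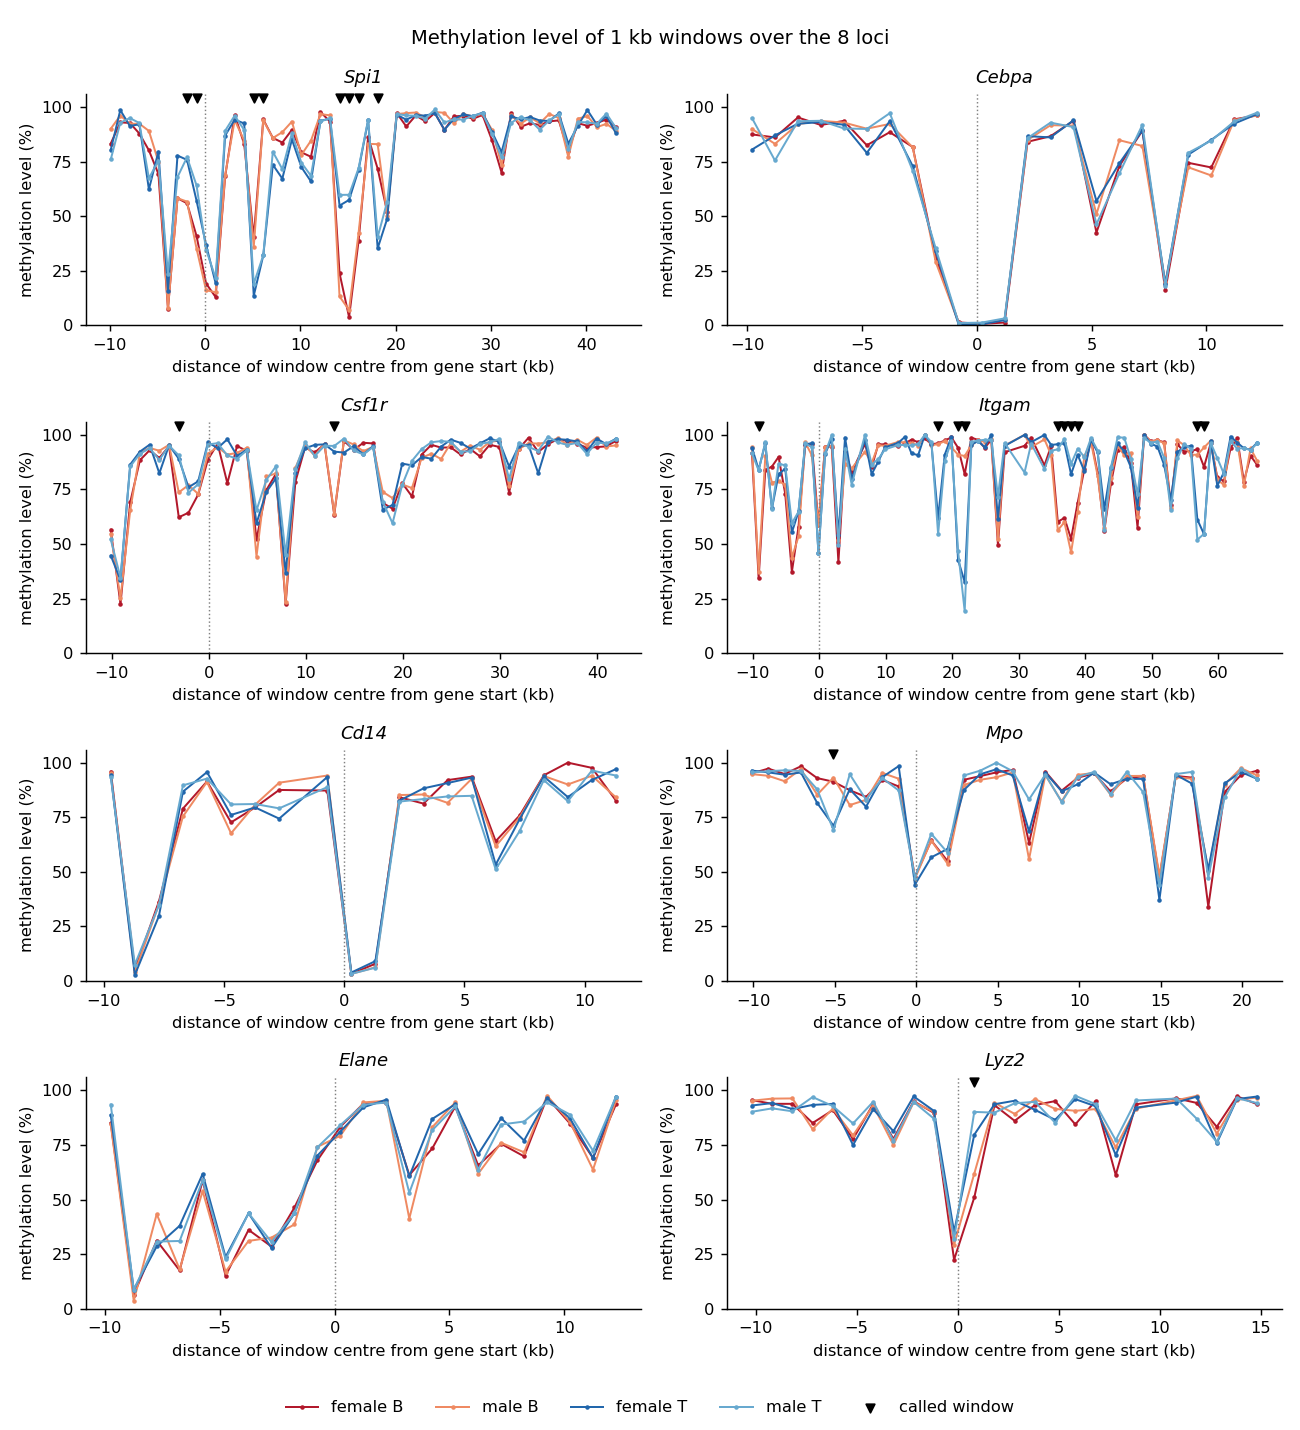
Methylation level (%) of 1 kb windows against the distance of the window centre from the annotated gene start (kb, in the direction of transcription), 1 panel per gene. Lines are the 4 files, red and orange B and blue shades T cells, and triangles mark called windows. The 4 lines run close together over most of Cebpa, while the B and T cell lines part at the called windows of Spi1 and Itgam.

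*Itgam* encodes the integrin chain CD11b of macrophages, granulocytes and some B cells. Cells bearing CD11b were removed from the T cells by antibody. The B cells are described as CD43-, and no antibody against CD11b is named for them. Whether these steps bear on the levels at *Itgam* was not tested. Its promoter (gene at chr7:128062640-128118491, plus strand) was at 76.3% in female B, 70.8% in male B, 71.5% in female T and 66.1% in male T cells. The files of the 2 cell types overlapped, and the difference of 4.79 points was not called (adjusted p = 0.548). Close to the start levels were lower, with B cells again above T cells. The 8 CpGs within 250 bases were at 17.9% and 12.6% in female and male B and at 3.96% and 5.79% in T cells. These rest on 14 and 14 methylated reads in B and 4 and 7 in T cells. The width was chosen after the values were seen, and the values have no test.

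The *Itgam* locus had 10 called windows of 72 (13.9%, beside 2.08% of all windows), 5 in each direction. Its mean level was 85.1% and 84.3% in B and 85.6% and 86.3% in T cells. The window before the gene at -9.14 kb (chr7:128053001-128054000, intergenic) was at 34.4% and 37.2% in B and 84.0% and 83.7% in T cells, a difference of -48.1 points (adjusted p = 3.67e-25). Inside the gene, 4 adjoining windows from 35.9 to 38.9 kb were lower in B cells, with differences from -25.4 to -36.3 points. The window at 36.9 kb (chr7:128099001-128100000, intron), with 13 CpGs, was at 62.0% and 60% in B and 96.2% and 98.2% in T cells.

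Lower in T cells were *Itgam* windows at 17.9, 20.9 and 21.9 kb. The window at 17.9 kb (chr7:128080001-128081000), with 19 CpGs, was at 96.1% and 95.8% in B and 62.0% and 54.5% in T cells, and the difference was 37.7 points (adjusted p = 1.48e-53). That at 20.9 kb was at 94.1% and 91.0% in B and 42.8% and 46.8% in T cells. At 21.9 kb the values were 82.0% and 90.3% in B and 32.6% and 19.2% in T cells, on 3 CpGs and 31 to 61 reads. Another pair of windows at 56.9 and 57.9 kb, past the 3′ end of *Itgam*, was higher in B cells by 35.5 and 35.2 points. A readthrough gene, *Gm49368*, overlaps 9 of the 10 called windows, and its methylation cannot be told apart from that of *Itgam*. Leaving out all windows that touch another coding gene or lie within 1 kb of its start kept 9 of the 72 *Itgam* windows, with 1 called.

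*Csf1r* encodes the receptor for macrophage colony stimulating factor. At its annotated gene start (chr18:61100598-61132149, plus strand), which is that of a noncoding transcript, the level was 88.3% in female B, 89.7% in male B, 91.8% in female T and 93.0% in male T cells, a difference of -3.39 points (adjusted p = 0.622). Coding transcripts start from 4.97 kb on. Around the first of these the level was 63.5% and 62.9% in B and 63.9% and 69.4% in T cells (-3.43 points, adjusted p = 0.731 over all starts). Closer to the coding starts levels were lower and the files of B cells lay below those of T cells. Within 250 bases of the start at 5.25 kb, 7 CpGs were at 16.4% in female B, 12.05% in male B, 29.0% in female T and 39.2% in male T cells on 73 to 93 reads. Within 250 bases of the start at 5.05 kb, 3 CpGs were at 13.0%, 0%, 25% and 29.0% in the same order on 23 to 36 reads, and all 3 are among the 7 CpGs of the start at 5.25 kb. Here the 0% on 35 reads allows up to 8.57%. The other coding starts had 0 measured CpGs within 250 bases. These values were chosen after they were seen and have no test. The intron window at 7.90 kb was the least methylated of the gene body, with 22.5% and 23.5% in B and 36.8% and 45.2% in T cells. Its difference of -18.0 points lay under the threshold. Of the 53 windows, 2 were called (3.77%), both lower in B cells, a share near the 2.78% of windows in the loci of all protein-coding genes. At 12.9 kb (chr18:61113001-61114000, intron) B cells stood at 63.5% and 63.9% and T cells at 92.3% and 94.9%, a difference of -29.95 points (adjusted p = 4.92e-22). The other, at -3.10 kb, rested on 5 CpGs and 53 to 64 reads, with 62.3% and 73.7% in B and 89.1% and 90.6% in T cells, and was lost without the female B, the female T or the male T cell file.

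*Cd14* encodes a coreceptor for bacterial lipopolysaccharide on monocytes and macrophages. Its promoter (gene at chr18:36725067-36726798, minus strand) was at 15.3% in female B, 17.9% in male B, 12.7% in female T and 13.8% in male T cells. Both B cell files were above both T cell files, but the difference of 3.36 points was not called (adjusted p = 0.257). Within 250 bases of the start, B cells were lower in each sex. There 10 CpGs were at 12.5% and 10.9% in female and male B and 17.5% and 11.9% in T cells, without a test. The direction also turned with the mean of CpG levels and with 500 bp to either side, as given below. The gene body was at 4.91% and 3.86% in B and 5.36% and 3.94% in T cells. None of the 21 windows was called, and the largest difference was 12.4 points at -2.70 kb (adjusted p = 0.0927).

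*Mpo* encodes myeloperoxidase of neutrophil granules. Its promoter (gene at chr11:87793581-87804413, plus strand) was at 54.7% in female B, 57.1% in male B, 52.1% in female T and 58.3% in male T cells. The files of both cell types overlapped, and the difference was 0.72 points (adjusted p = 0.974). Within 250 bases of the start, 5 CpGs were at 24.3% and 33.8% in B and 25.3% and 28.8% in T cells. Of the 32 windows 1 was called (3.1%, near the 2.78% of windows in the loci of all protein-coding genes). It lay at -5.08 kb (chr11:87788001-87789000, intergenic), where B cells were higher with 91.3% and 93.2% against 71.1% and 69.1% (22.1 points, adjusted p = 6.56e-07).

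*Elane* encodes neutrophil elastase. Its promoter (gene at chr10:79886247-79888215, plus strand) was at 88.8% in female B, 86.1% in male B, 86.4% in female T and 90.5% in male T cells, a difference of -1.01 points (adjusted p = 0.919). The body was highly methylated in every file, at 90.3% to 92.2%. The upstream flank was far lower, at 34.7% and 33.6% in B and 38.8% and 39.5% in T cells, and holds the neighbouring granule gene *Prtn3*. None of the 23 windows was called. The largest difference, at -6.75 kb in the *Prtn3* untranslated region, was -16.7 points on 5 CpGs (adjusted p = 0.0667).

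*Lyz2* encodes the lysozyme of macrophages and granulocytes and had the largest promoter difference of the 8 genes. The promoter (gene at chr10:117277331-117282321, minus strand) was at 41.5% in female B, 50.7% in male B, 64.1% in female T and 66.7% in male T cells, on 14 CpGs and 212 to 329 reads. Both B cell files were below both T cell files, with a difference of -22.6 points in females and -15.9 points in males, and the mean of -19.3 points (adjusted p = 0.0471) fell just short of the 20 point threshold. With CpGs of 10 or more reads, the difference was -20.6 points and the promoter was called. The window just inside the gene, at 0.821 kb (chr10:117281001-117282000, intron), was at 51.0% and 61.9% in B and 79.7% and 90.2% in T cells (-28.5 points, adjusted p = 2.19e-11). The 4 CpGs within 250 bases of the start were at 3.95% and 12.8% in B and 22.8% and 15.5% in T cells. The near-identical gene *Lyz1* overlaps the locus, so reads of both genes may have been assigned to either.

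By rule, the 5 promoters with levels most like those of *Lyz2* over the 4 files were *Mgst2*, *Bhlha15*, *Cdh17*, *Lat2* and *Lbp*, with a root mean square difference of 2.24 to 4.03 points. *Cdh17*, a cadherin of the intestine, was at 44% and 47.5% in B and 69.1% and 68.8% in T cells, and *Lat2*, an adaptor protein of B and myeloid cells, was at 39.7% and 46.0% in B and 59.4% and 67.8% in T cells. *Mgst2*, a microsomal glutathione transferase, was at 44.4% and 53.2% in B and 66.2% and 65.4% in T cells. *Bhlha15*, a transcription factor of secretory cells, was at 42.1% and 52.3% in B and 61.6% and 60.7% in T cells, and *Lbp*, which encodes a lipopolysaccharide binding protein, was at 49.2% and 50.3% in B and 63.2% and 64.4% in T cells. All 5 were lower in both B cell files than in either T cell file, as their choice by closeness to *Lyz2* makes likely.

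Averaged over whole loci, all 8 genes were within 5 points between B and T cells. For a locus the call used the same p and at least 10 points, and 0 of 8 passed, against 0.375% of 21624 loci (81 loci). At an unadjusted p under 0.05 there were 2 (*Spi1* and *Csf1r*), beside 16.1% of all loci, and 0 were called by either use of limma. Differences ran from -4.43 points at *Spi1* to 1.88 points at *Cd14*, and the median was -1.503 points, against 0.44 points over all loci. The median absolute difference was 1.82 points for the members and 1.14 points over all loci. The share of all loci within 5 points is not given here, so the likeness is not one particular to these genes. Levels of the loci differed far more between genes than between cells. *Cebpa* and *Cd14*, whose bodies were nearly unmethylated, had the lowest means with 32.6% to 34.8% and 40.8% to 44.5%, followed by *Elane* with 60.7% to 65.1%, *Spi1* with 72.9% to 78.0% and the other 4 with 84.3% to 89.9%.

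At the scale of 1 kb windows with 3 or more CpGs, 22 of 303 member windows (7.26%) were called, against 2.08% of the 2018320 windows tested and 2.78% of those in the loci of all protein-coding genes. In 13 windows B cells were lower, against 0.914% of all windows, and in 9 B cells were higher, against 1.17% of all windows. With limma on the mean of CpG levels 17 were called (5.61%, beside 1.64% of all windows). With limma on log2 ratios 10 were called (3.3%, beside 1.02%). *Spi1* and *Itgam* together held 18 of the 22. The other 6 loci held 4 called windows of 177 (2.26%). This split was made after the calls were seen, so the lower share of the other loci follows from it. Most windows were alike: in 250 of 303 (82.5%) the mean difference was under 10 points, against 93.1% of all windows. The median absolute difference between mean B and mean T levels was 2.50 points, against 2.26 points over all windows. Between single files it was 3.15 points for B against T in females and 3.07 points in males, and 2.08 points for female against male in B and 2.35 points in T cells. The share of windows at 80% or more in all 4 files was 61.1% for the members and 73.2% for all windows, given as a description without a test.

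**Figure D3:**
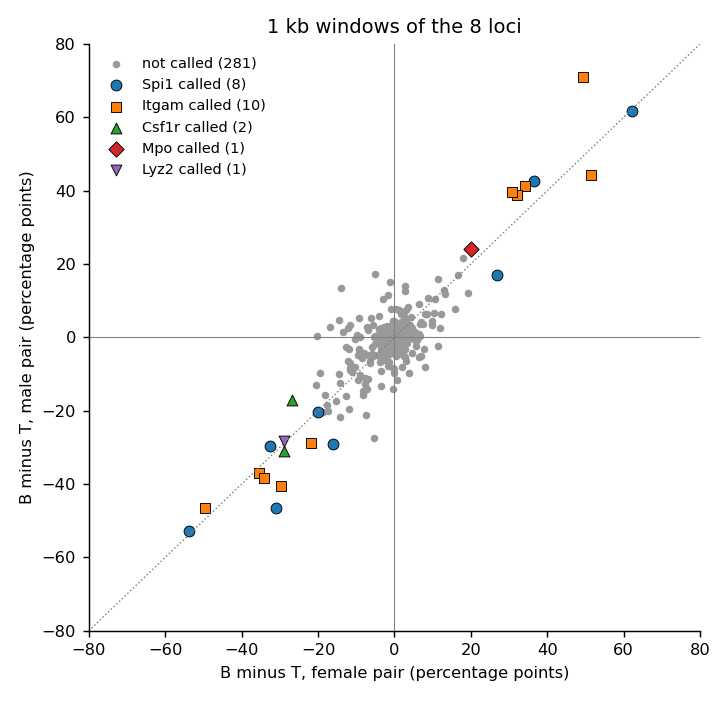
B minus T methylation difference (percentage points) of each of the 303 windows in the female pair (horizontal) and the male pair (vertical). Coloured symbols are the 22 called windows by gene, grey points the 281 others, and the dotted line marks equal differences. Called windows have the same sign in both sexes, and most other windows lie near 0.

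Of the 303 windows, 184 had the same sign in the female and the male pair and 119 did not. All 22 called windows had the same sign in the female and the male pair, as the call on both pairs makes likely, and the smaller of the pair's differences was at least 16.2 points. Female and male files of the same cell type had a median absolute difference of 3.75 points in B and 2.70 points in T cells over these windows and a largest one of 13.4 points. These windows were chosen for their B and T cell difference, so no comparison with it is drawn. In the test of sex, 0 of 8 promoters, 0 of 8 loci and 0 of 303 windows were called, against 0% of autosomal promoters, 0% of autosomal loci and 0.00108% of autosomal windows (21 of 1950708). At an unadjusted p under 0.05 there were 0 promoters and 0 loci of the members, beside 4.64% and 3.78% of autosomal ones, and 19 member windows (6.27%), beside 4.88% of autosomal windows. Averaged over both cell types, the largest difference between the sexes was 5.88 points in size among the promoters and 13.7 points among the windows. Within a cell type the largest among the promoters was -9.23 points, female minus male, at *Lyz2* in B cells.

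In a wider list of 51 myeloid genes, 50 had a promoter that was tested, and 3 were called (6.00%), against the 0.896% of all promoters given above. *Ncf4* and *Fgr* were lower in B cells and *Ccr2* was higher. *Ncf4*, a subunit of the phagocyte NADPH oxidase, was at 30.4% and 31.1% in female and male B and at 68.3% and 67.1% in T cells, a difference of -36.9 points (adjusted p = 0.000277). *Fgr*, a SRC family kinase, was at 20.5% and 18.6% in B and 43.2% and 42.3% in T cells (-23.2 points, adjusted p = 0.00038). *Ccr2*, a chemokine receptor of monocytes, was at 89.7% and 94.5% in B and 54.5% and 65.4% in T cells on 8 CpGs (32.1 points, adjusted p = 0.0174). With the mean of CpG levels in limma none of these 3 was called, nor was any without 1 of the 4 files, where 1 cell type is left with a single file.

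By role, 0 of 7 promoters of further transcription factors were called. Of these, 6 were at 20% or less in all 4 files, as were 52.7% of all promoters. Of growth factor receptors 0 of 6 were called, with *Csf2rb*, the shared chain of the IL-3 and GM-CSF receptors, at 16.0% and 10.1% in B and 30.8% and 32.0% in T cells. Of granule protein genes 0 of 13 were called, of surface proteins 1 of 15 and of signalling and effector genes 2 of 9. Since 0.896% of all promoters were called, a count of 0 in so short a list tells little. The median difference over the 50 promoters was -0.98 points. Over whole loci, 1 of 50 was called, beside 0.375% of all loci. This was *Irf8*, a transcription factor of monocytes, dendritic cells and B cells, at 58.5% and 55.9% in B and 74.6% and 76.4% in T cells.

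Lists of other lineages showed the range the assay covered. For erythroid and megakaryocyte genes 0 of 11 promoters were called, with a median of -1.10 points. For NK cell genes 0 of 8 were called, with a median of 0.22 points. Beside these counts, 0.896% of all promoters were called. The median was -35.3 points for the B cell and 55.5 points for the T cell list. In windows of the loci, 2.24% were called for erythroid and megakaryocyte, 5.76% for NK cell, 12.3% for B cell and 38.2% for T cell genes, beside 5.57% for the wider myeloid list, 2.08% of all windows and 2.78% of those in the loci of all protein-coding genes. Members and lists were named for their known lineage, but with earlier results of these data known. These shares are given as a description without a test between lists.

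**Figure D4:**
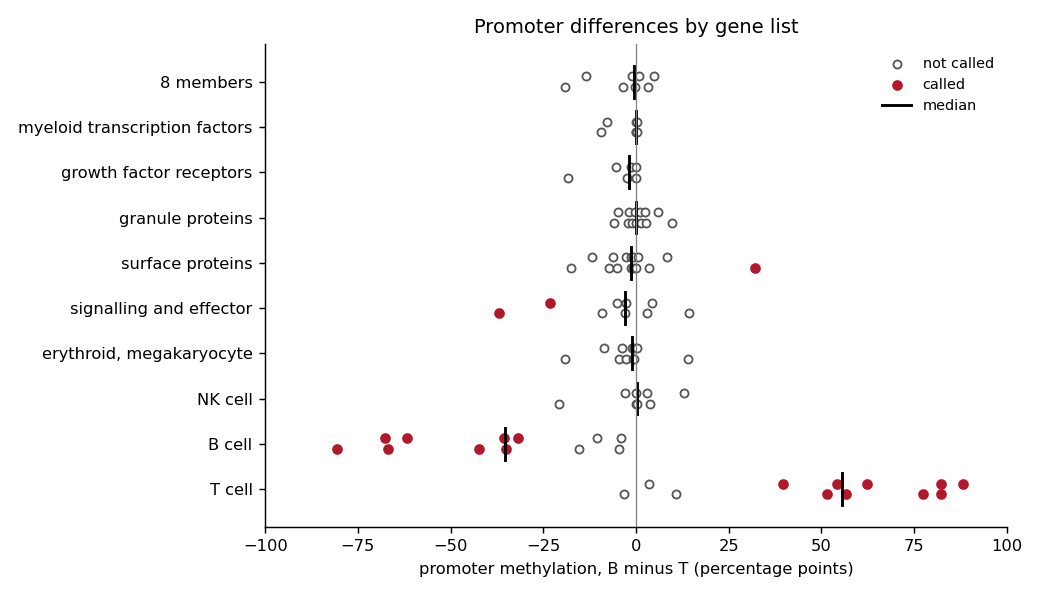
Promoter methylation, B minus T (percentage points), of each gene in 10 gene lists. Points are genes, each at its 1 annotated gene start, filled red where called, and the black bars are list medians. The signed medians of the 8 members and the other lineages lie near 0. The B cell list lies to the left (median -35.3) and the T cell list to the right (median 55.5).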

How the data were processed

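Per the labels, libraries were whole-genome bisulfite libraries, and the submitters' processing notes name Trim Galore, FastQC, Bismark 0.13.1 and the build mm10. The caller, duplicate removal and filters are not given in the sources used here. Each deposited file held, per CpG, the methylated fraction to 3 decimals and the count of covering reads, with 5 or more reads in every entry, so poorly covered CpGs are missing. Methylated reads were the fraction times the count, rounded. CpGs listed in all 4 files were used, and 1 was added to the deposited positions to place them on CpGs of the reference.

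Reads were summed over promoters, loci and 1 kb windows with 3 or more CpGs. Each region was fitted by quasi-binomial logistic regression on cell type plus sex, which left 1 residual degree of freedom. Its dispersion was squeezed with limma 3.58.1 in R 4.3.3 towards a prior from features with 5 or more expected reads of both kinds in every file, followed by F tests (two-sided in effect) with Benjamini-Hochberg adjustment over all features. For windows the prior degrees of freedom were infinite, so window p-values rest on an average dispersion of 1.29 and overstate the certainty of any single window. Wilson intervals cover counting error only. The models were tested on simulated data.

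All 8 members were named. In each locus up to 3 called windows per direction, ordered by whichever of its female or male difference was smaller, were named by rule, or the window with the largest difference where none was called. Further called windows of *Spi1* and *Itgam*, the window at 7.90 kb of *Csf1r* and the CpGs within 250 bases of starts were added after their values were seen. In the wider list, up to 6 called promoters per direction were named, and *Csf2rb* and *Irf8* were added after their values were seen. The promoters most like that with the largest difference were the 5 with the smallest root mean square difference. The members and the gene lists were chosen with earlier results of these data known. Symbols were matched to GENCODE M21 for 50 of the 51 wider list genes.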

Additional observations from a re-analysis of the deposited data

Results flagged for a closer look

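Of the members' gene start promoters, loci and windows named by rule, 5 had opposite signs of B minus T in the female and the male pair. Among the 303 member windows, 119, none of them called, also had no common sign in both pairs. Some other coding starts of *Csf1r* and *Mpo* and some promoters of the other gene lists had opposite signs too and are not listed here. With 1 file per group, whether the B minus T difference itself depended on sex was not tested in any of them. At the *Cebpa* promoter the female pair gave 0.22 and the male pair -0.50 points, and at the *Mpo* promoter 2.63 and -1.18 points. The *Elane* promoter differed by 2.32 points in the female and -4.34 points in the male pair, while female minus male was 2.63 points in B and -4.04 points in T cells. The *Cebpa* locus differed by 2.21 and -0.04 points and the *Mpo* locus by 0.42 and -0.45 points. In the tests of cell type and of sex as main terms, none of the 5 was called.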

How the results depend on the processing

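The count of 0 called member promoters became 2 (*Spi1* and *Lyz2*) with a threshold of 10 points and 1 (*Lyz2*) with 10 reads per CpG. The share of all promoters called under these 2 settings is not given here, so whether the counts stand out cannot be told. Over every annotated start, an alternative chosen after seeing the data, 2 were called (both *Spi1*), beside 1.36% of all coding transcript starts. The count stayed at 0 under the others. That tells little, since 0.896% of all promoters were called in the main run and a count of 0 among 8 is common at such a share. The count of 0 called loci held under every alternative run, which likewise tells little, since 0.375% of all loci were called in the main run. The 22 called windows (7.26%, beside 2.08% of all windows) became 10 (3.3%, beside 1.02%) with limma on log2 ratios, of which 10 were among the 22, 42 of 303 (13.9%, beside 4.22% of all windows) with a threshold of 10 points, 42 of 479 (8.77%, beside 2.75%) with windows of 500 bp, 8 of 160 (5%, beside 1.4%) with windows of 2 kb and, as alternatives chosen after seeing the data, 13 of 181 (7.18%) without windows that touch another coding gene or lie within 1 kb of its start and 26 of 459 (5.66%) with 20 kb to either side. Without each file in turn 20 to 24 were called. Of the 3 called promoters in the wider list, 0 remained with the mean of CpG levels, 1 with 500 bp to either side and 0 to 0 without each file, with the sex term dropped and the lone file assumed to vary like the others. The causes were not tested.

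Differences near 0 changed sign, none of them called. With the mean of CpG levels the difference was -1.10 points at the *Mpo* and -1.23 at the *Cd14* promoter, and -0.74 over the *Cebpa* and -0.64 over the *Cd14* locus. With 500 bp to either side it was 0.76 at the *Elane*, -0.023 at the *Mpo* and -2.53 at the *Cd14* promoter, and with 2 kb -1.65 at *Mpo*. The gene body alone gave 0.41 at *Itgam*, 0.11 at *Elane* and -0.26 at *Cd14*. Leaving out CpGs near starts gave -1.11 at *Cebpa* and 0.24 at *Mpo*, and 10 reads per CpG gave 0.54 over the *Mpo* locus. Without single files the values ran from -0.46 to 0.18 at the *Cebpa* promoter, -3.03 to 1.01 at the *Elane* promoter, -2.37 to 3.82 at the *Mpo* promoter and -0.25 to 0.21 over the *Mpo* locus.

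No paired analysis was possible because the groups share no replicate numbers, and files were matched by sex alone, as a term of the model. Depth limits single windows, since a window of 3 CpGs rested on 31 to 61 reads. With 1 file per group, no spread between pools of one kind is known.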

Other observations

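Between 10 and 20 kb from the members, 4 of 156 windows were called (2.56%), a share near the 2.08% of all windows and the 2.78% of windows in the loci of all protein-coding genes, in a range chosen after the values were seen. The window centred 13.1 kb before *Itgam* (chr7:128049001-128050000, intergenic) was at 7.59% in female B, 4.90% in male B, 53.2% in female T and 59.3% in male T cells, a difference of -49.98 points. In the *Itgax* intron 75.9 kb from the *Itgam* start, B cells were at 76.2% and 72.7% and T cells at 97.7% and 92.2%. Before *Lyz2*, at -11.2 kb, B cells were higher with 66.7% and 70.1% against 41.4% and 49.0%, the opposite direction to the window inside the gene. The window at -11.2 kb is intergenic and lies within 1 kb of a *Lyz1* transcript start. At -16.1 kb from the *Csf1r* start, in *Pdgfrb*, B cells were at 71.1% and 73.1% and T cells at 95.7% and 95.7%. The *Spi1*, *Cebpa*, *Mpo*, *Elane* and *Cd14* flanks held no called window there.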
